A study of Drosophila melanogaster with 10 samples.

Results

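Hours 1 and 6 of a time course in adult Drosophila melanogaster kept on food without yeast are compared here with the other 8 hours measured. These 2 of 10 arrays were selected on how bright Yp1, Yp2 and Yp3 were, the yolk protein genes, which stood highest at those hours. The other 8 arrays are hours 2, 3, 5, 7, 9, 10, 11 and 12. All 10 arrays share 1 treatment. As larvae, early in the third instar, the animals were moved from standard food to food lacking yeast and were kept on it. Sampling by the hour started when the adults were 4 days past emergence. Each hour is a single Affymetrix array of RNA from whole animals, and hours 4 and 8 gave too little RNA, per the labels. Flies returned to yeast and flies taken before the course were not used here. The labels used here give neither the strain, nor the sex of the flies, nor how many were pooled for an array.

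Yolk proteins are made by the female fat body and by the follicle cells around the oocyte, and are taken up by the oocyte through the receptor Yolkless. Follicle cells also secrete the vitelline membrane and, later, the chorion. Nurse cells of the germline make the maternal RNAs and supply the oocyte with ribosomes, whose assembly starts in the nucleolus. Egg production and yolk synthesis in this species depend on dietary yeast and on insulin signalling. In RNA from whole flies, fewer cells of a type and less RNA per cell cannot be told apart.

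Array medians lay between 111.2 and 120.1 intensity units over the 10 arrays, with the highest at hour 3. Hour 6 had the highest 18S ribosomal RNA control signal, 1247.5 intensity units, against 272 at hour 1 and between 90.3 and 501 at the other 8 hours. Its actin 3' to 5' ratio, a measure of RNA integrity, was 2.56, against 1.89 at hour 1 and 1.80 to 2.52 at the other hours. The eIF4A ratio was 4.80, against 3.30 at hour 1 and 2.94 to 4.08 at the other hours, and the GAPDH ratio was 3.53, inside the 2.88 to 4.77 of the other hours. The part of these values in the results at hour 6 was not tested. An array intensity compares a probe set between arrays and not with another probe set. The 8 arrays are different hours and not replicates of a condition, so their SD holds the course as well as the error.

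The 3 yolk protein probe sets stood farther above the other hours than any other probe set. Yp1 read 1332 at hour 1 and 735 at hour 6, against a lowest of 162, a median of 224 and a highest of 510 over the other 8 hours. Yp2 read 1135 and 509.3 at hours 1 and 6, against 166 to 370.4 with a median of 207 at the other hours. Yp3 read 1072 and 943, against 271 to 778 with a median of 375. For each of the 3 genes both hours lay above all other 8 arrays, which is how the hours were chosen.

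Set against the median of the other 8 hours, Yp1 was 5.96-fold higher at hour 1 and 3.29-fold higher at hour 6. The same folds were 5.49 and 2.47 for Yp2, and 2.85 and 2.51 for Yp3. Yp1 and Yp2 thus differed more between hours 1 and 6 than Yp3 did. On the log2 scale the mean of the 2 hours minus the mean of the other 8 was 1.98 for Yp1, 1.77 for Yp2 and 1.23 for Yp3, beside SDs of 0.62, 0.42 and 0.54 over the other 8 arrays. Yp1 and Yp2 are neighbours on the X chromosome with 0 protein-coding genes between them, and Yp3 lies on the same chromosome with 370 between it and Yp1, in the RefSeq gene table of Release 6. The 3 genes are related in sequence, and cross-hybridisation of their probe sets was not tested.

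The choice of hours has a close neighbour. Averaged over the 3 genes on the log2 scale, hour 1 stood at 10.20 and hour 6, the hour just inside the choice, at 9.46. Hour 3, just outside it, stood at 9.04 and hour 2 at 8.78, while the lowest was 7.65 at hour 10. The step between hours 6 and 3 was narrowest for Yp3, with 943 and 778, beside 735 and 510 for Yp1 and 509.3 and 370.4 for Yp2.

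**Figure D1:**
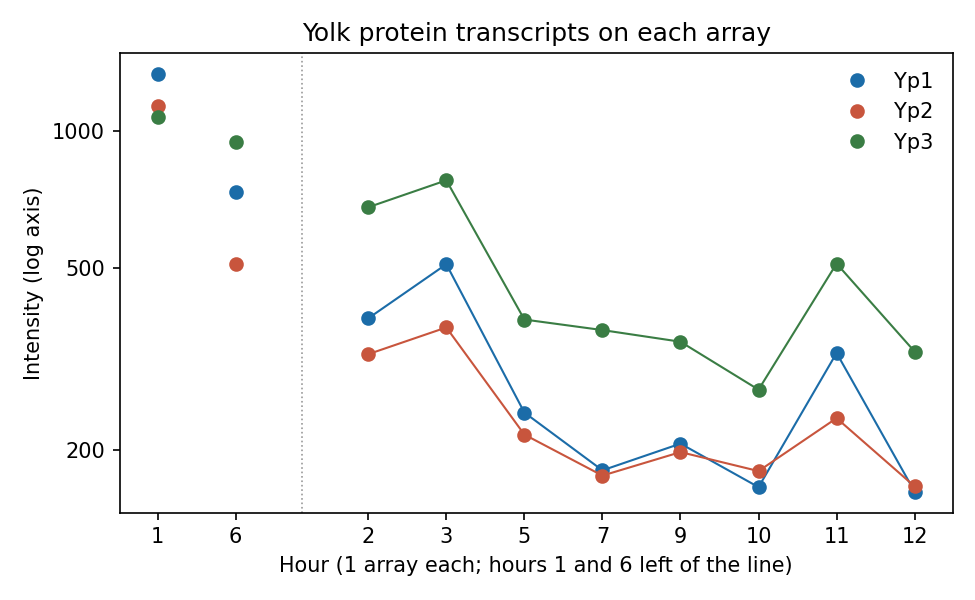
Intensity of Yp1, Yp2 and Yp3 (log axis) on each array, with hours 1 and 6 to the left of the dotted line and the other 8 hours to its right. Yp1 reads 1332 at hour 1 and 735 at hour 6, and its highest value among the other hours is 510 at hour 3.

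Few transcripts shared the yolk pattern at a comparable size. A probe set was counted as higher when hours 1 and 6 both lay above all other 8 arrays and their mean log2 difference was at least 0.5, a 1.41-fold change. That held for 20 of 13966 non-control probe sets, or 0.143%, and these include the 3 yolk protein genes. The mirror rule for lower values held for 1 probe set, or 0.00716%. A difference of at least 1 on the log2 scale was reached only by Yp1, Yp2 and Yp3 among those 20. Because the hours were picked for their yolk intensities, these counts describe the 10 arrays and carry no test.

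**Figure D2:**
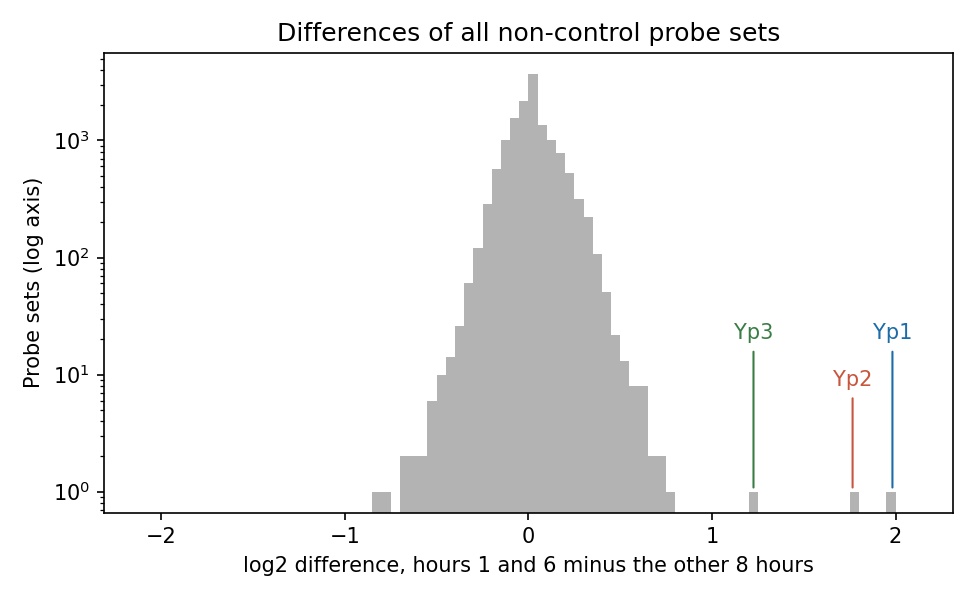
Histogram of the log2 difference, hours 1 and 6 minus the other 8 hours, for all 13966 non-control probe sets (number of probe sets on a log axis). Most lie near 0, and Yp1, Yp2 and Yp3 stand apart at 1.98, 1.77 and 1.23.

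Without the size limit, both hours lay above all other 8 arrays in 737 probe sets, or 5.28%, and below all of them in 333, or 2.38%. Among the 8380 brighter probe sets, those with a mean log2 intensity at or above the 40th percentile, the share above was 6.83%. These shares are the background for the gene lists below. The median difference over all probe sets was 0, and it was 0.02 over the brighter ones. Of the brighter probe sets, 56.1% had a positive difference.

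Each hour had a wider set of its own. Hour 1 alone lay above all other 8 arrays in 9.82% of the probe sets and hour 6 in 15.9%. With a difference of at least 0.5, the counts were 47 probe sets at hour 1, or 0.337%, and 124 at hour 6, or 0.888%. Below all other 8 arrays by as much were 14 probe sets at hour 1 and 7 at hour 6. The 2 hours are set against the same 8 arrays, so an overlap between them has no test here.

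Among the 17 higher probe sets besides the yolk protein genes, 3 belong to maternal RNAs of the germline. The first is me31B, a DEAD-box RNA helicase that keeps maternal RNAs untranslated in the oocyte. It read 416 at hour 1 and 471 at hour 6, against 205 to 399 with a median of 280 at the other hours. Hour 3, at 399, was the nearest of the other hours. smg, which encodes Smaug, a repressor of nanos RNA in the early embryo, read 177 and 183 at hours 1 and 6, against 95.9 to 156 with a median of 125. swa, which encodes Swallow, a protein needed to anchor bicoid RNA in the oocyte, read 101 and 121, against 51.7 to 93.5 with a median of 76.3. The highest of the other hours was hour 3 for all 3 genes.

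Gyf and Jabba belong to the same set of 17. Gyf, the fly GIGYF protein of translational repression, read 182 at hour 1 and 184 at hour 6, against 100.5 to 148 with a median of 123 at the other hours. Jabba, a lipid droplet protein that stores histones on droplets in the embryo, read 172 and 183, against 95.7 to 149 with a median of 125. Both hours thus lay above the other 8 for each gene, with log2 differences of 0.55 for both. Cds, a CDP-diacylglycerol synthase of phospholipid synthesis, read 112 and 117, against 53.7 to 103, with a log2 difference of 0.55.

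The largest difference among the 17 belonged to CG16762, at 0.73 on the log2 scale or 1.66-fold. It read 185 at hour 1 and 200.4 at hour 6, against 66.7 to 184 with a median of 112. Its margin was thin, since hour 7 at 184 lay just under hour 1. Culd, an endocytic membrane protein known from photoreceptors, read 249 and 202 at hours 1 and 6, against 98.9 to 196. Gasp, a chitin-binding cuticle protein, read 189.9 and 265, against 113 to 177. Both lay above every other hour, with log2 differences of 0.64 for Culd and 0.63 for Gasp.

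The remaining probe sets counted as higher had log2 differences between 0.50 and 0.61. Those with 1 named gene were CG17931, CG8507, CG33229 and CG15096, the kinase gene Tao, the calcium-binding protein gene CBP and betaTub56D, the main beta-tubulin. betaTub56D read 524 and 594 at hours 1 and 6, against 271 to 500.3 at the other hours, where hour 7 was highest. A further probe set has no single gene in the platform annotation used here. The only probe set counted as lower was that of CG12025, which read 408 and 445 at hours 1 and 6, against 481 to 730.1 with a median of 609 at the other hours.

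The list of female germline and maternal genes held 47 measured genes of 52. Both hours lay above all other 8 arrays in 10 of them, or 21.3%, beside 5.28% of all probe sets. They lay below all in 1, capu, or 2.13%, beside 2.38% of all probe sets. The median difference was 0.10 on the log2 scale, beside 0 for all probe sets. Of the 47, 9 sat at the floor on all arrays, among them bcd and grk, and for these no difference could be seen. Among the 27 brighter members, 7 lay above, or 25.9%, beside 6.83% of all bright probe sets, and their median was 0.26.

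The 10 genes were me31B, smg, swa, gnu, wisp, vas, piwi, stau, gcl and otu. gnu, a subunit of the Pan Gu kinase complex of the egg, read 207 at hour 1 and 257 at hour 6, against 156 to 196 with a median of 181 at the other hours. wisp, the cytoplasmic poly(A) polymerase of the oocyte, read 128 and 156, against 97.5 to 122 with a median of 109. In both gnu and wisp hour 6 was higher than hour 1. vas, a DEAD-box helicase of the germ plasm, read 72 and 78.2 at hours 1 and 6, against 49.1 to 62.3, values near the floor of 57.4. piwi, of the piRNA pathway, read 101 and 121, against 80.1 to 95.1. stau, the double-stranded RNA-binding protein Staufen, read 254 and 242, against 186 to 240.04, so its hour 6 lay just above hour 5.

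Other members with differences of similar size were not above all other arrays. mtrm, an inhibitor of Polo kinase in female meiosis, read 144 at hour 1 and 173 at hour 6, against 88.5 to 146 with a median of 101 at the other hours, and hour 3 lay above hour 1. exu, needed for bicoid RNA localisation, read 184 and 180.4, against 110.4 to 215, with hour 3 the highest of all 10 arrays. orb, the germline CPEB protein that acts on oskar RNA, read 302 at hour 1 and 437 at hour 6, against 242 to 314. osk, the germ plasm organiser, read 484 and 673, against 366 to 540.1. Both orb and osk were above all other arrays at hour 6 but within their range at hour 1. Of the 47 measured genes, 13 lay above all other 8 arrays at hour 1, a larger share than the 9.82% of all probe sets. At hour 6 it was 18 of 47, a larger share than the 15.9% of all probe sets. Some lists of other tissues, given below, also exceeded these single-hour shares.

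**Figure D3:**
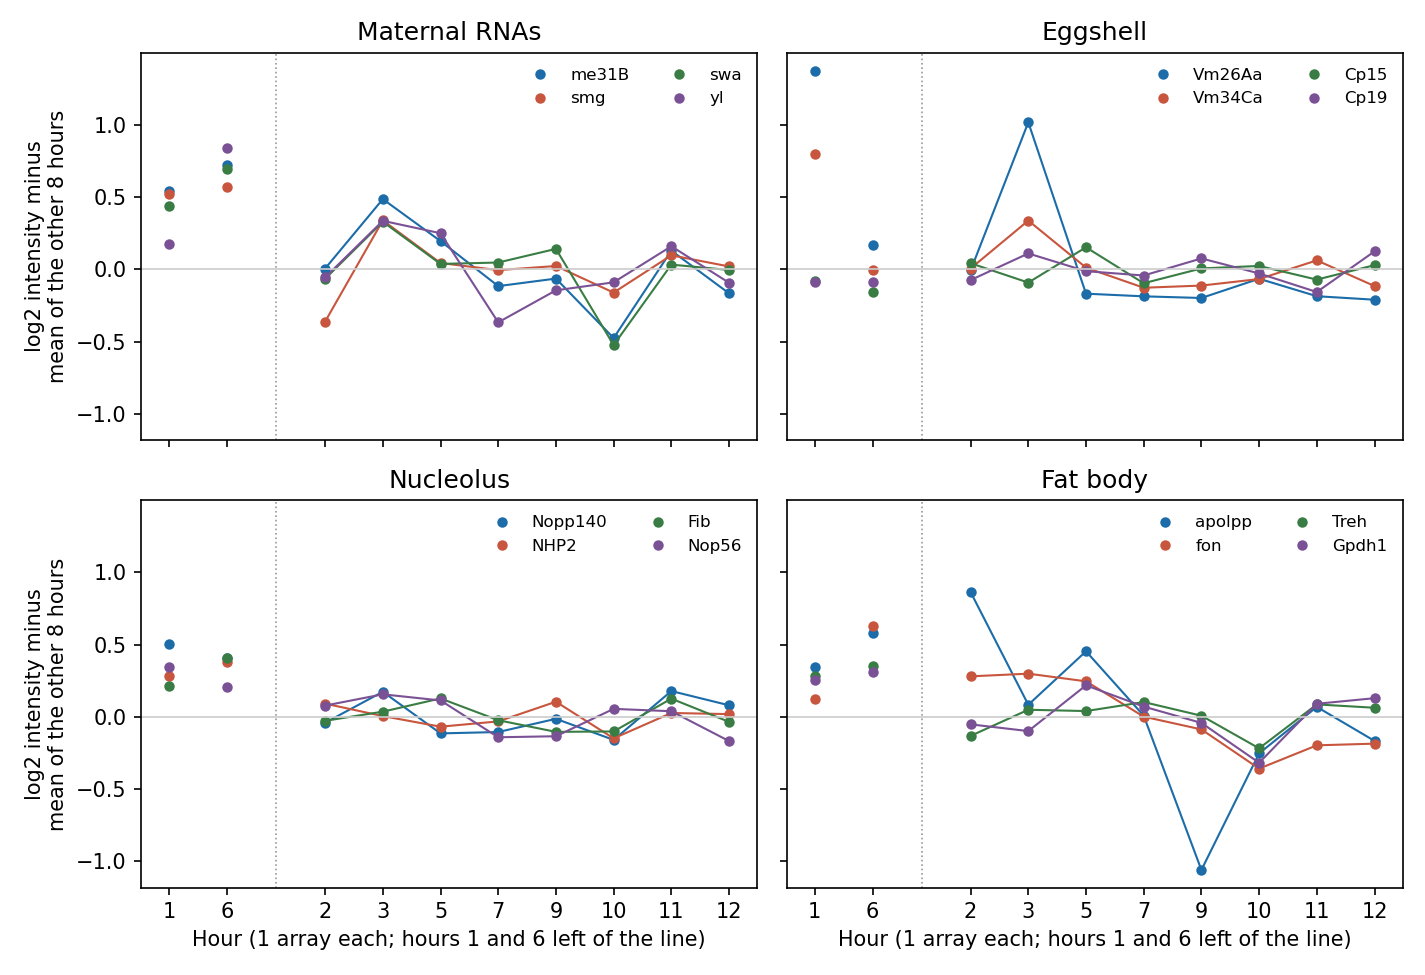
log2 intensity minus the mean of the other 8 hours, for selected maternal, eggshell, nucleolar and fat body genes on each array, with hours 1 and 6 left of the dotted line. me31B, Nopp140 and Treh lie highest at hours 1 and 6, whereas Vm26Aa is high at hours 1 and 3 and the chorion genes Cp15 and Cp19 stay near 0.

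The receptor of yolk uptake did not follow the rule. yl, which encodes Yolkless, read 449 at hour 1 and 714 at hour 6, against 309 to 503 with a median of 379 at the other hours. Hour 6 was the highest array of all, while hour 1 lay below hours 3 and 5. In the list of genes that supply amino acids and lipid to yolk, 1 of 14 measured genes lay above at both hours. This is 7.14%, beside 5.28% of all probe sets. That gene was mnd, which encodes an amino acid transporter, with 75.1 and 82 against 53.6 to 74.02. The lipophorin gene apolpp, whose protein carries lipid in the blood, read 606 and 711, inside the range of 228 to 867 at the other hours. The list's median difference was 0.12.

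Vm26Aa and Vm34Ca, eggshell genes, were highest at hour 1. Vm26Aa, a major vitelline membrane protein of follicle cells, read 1002 at hour 1 but 435 at hour 6, against 334 to 782 with a median of 342 at the other hours. Hour 3, at 782, was the highest of the other hours, and the remaining 7 lay between 334 and 384. Vm34Ca, also of the vitelline membrane, read 688 at hour 1 and 393 at hour 6, against 362 to 499.6 with a median of 387. Vm26Aa at hour 6 was 1.27 times the median of the other hours and above all of them except hour 3, while Vm34Ca at hour 6 was 1.02 times its median and within their range.

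Of 10 measured vitelline membrane genes out of 14 listed, 1 lay above at both hours, or 10%, beside 5.28% of all probe sets. This was dec, an eggshell protein of the follicle cells, with 92.9 and 65.4 at hours 1 and 6, against 43.6 to 53.9 at the other hours, all under the floor. The list's median difference was 0.03. Of 12 measured chorion genes out of 16 listed, 0 lay above at both hours and 0 below, and the median was -0.04. Cp15 read 123 and 117 at hours 1 and 6, against 122 to 145, and Cp36 read 249 and 237, against 234 to 258. Pxt, a peroxidase needed for the chorion, had the largest difference of that list. It read 228 and 304, against 158 to 261, with hour 3 above hour 1.

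Genes of the nurse cell cytoskeleton had a median difference of 0.20, with 0.08 at hour 1 and 0.21 at hour 6, but 0 of 7 measured genes lay above at both hours. hts, the adducin of the ring canals, read 116 and 148 at hours 1 and 6, against 93.9 to 135 at the other hours. Of 42 measured genes of DNA replication and the cell cycle, 1 lay above, or 2.38%, beside 5.28% of all probe sets, and the median was 0.02. That gene was E2f1, the activator of S phase genes, with 301 and 299 against 207 to 282. CycB, which is stored as a maternal RNA, read 840.5 at hour 1 and 928 at hour 6, against 597 to 888, with hour 3 above hour 1. Taking each hour by itself, 11 of the 42 genes lay above all other 8 arrays at hour 6, a larger share than the 15.9% of all probe sets. At hour 1 it was 1 of 42, a smaller share than the 9.82% of all probe sets.

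Ribosome assembly genes gave the largest share. Of 31 measured genes out of 38 listed, 13 lay above all other arrays at both hours, or 41.9%, and 0 below, beside 5.28% of all probe sets. Among the 23 brighter members it was 11, or 47.8%, beside 6.83%. The list median was 0.10, or 0.18 over the brighter members, and the largest difference was 0.46. Nopp140, a nucleolar phosphoprotein, read 342 at hour 1 and 319.6 at hour 6, against 216 to 273 with a median of 237 at the other hours. Fib, the fibrillarin that methylates ribosomal RNA, read 516 and 590.3, against 413 to 485 with a median of 437. Nop56, a partner of fibrillarin, read 549.7 and 498, against 385 to 482. The groups do not overlap for these 3 genes, with gaps that are small beside the intensities.

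NHP2 and Nop10 belong to the complex that makes pseudouridine in ribosomal RNA. NHP2 read 142 and 152 at hours 1 and 6, against 105 to 126, and Nop10 read 459.5 and 485, against 348 to 458. For Nop10 hour 3, at 458, nearly reached hour 1. Among the others were Noa36, Nnp-1, Surf6, RIOK2, Ns2, pit and Polr1B. RIOK2, a kinase of small subunit maturation, read 136 and 147, against 105 to 126. Polr1B, a subunit of RNA polymerase I, read 58.3 and 63.1, against 41.9 to 50.6, just across the floor. In the same list RIOK1, a kinase of the same family, had a difference of -0.17, with 73.4 and 79.1 at hours 1 and 6, against 76.2 to 95.9 at the other hours. ppan had the most negative difference, -0.24, but read 83.8 and 90.8, against a median of 74.8. Its difference rests on hour 3, at 646, since the other 7 hours lay between 70.2 and 117.

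The ribosomal proteins themselves showed no such share. Of 86 cytosolic ribosomal protein genes listed, 31 were measured, and 0 lay above and 0 below at both hours. Over all probe sets the shares were 5.28% above and 2.38% below, so counts of 0 in 31 are near those shares. Their median difference was 0.00454, and the differences ran from -0.13 for RpS10a to 0.17 for RpS29.

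**Figure D4:**
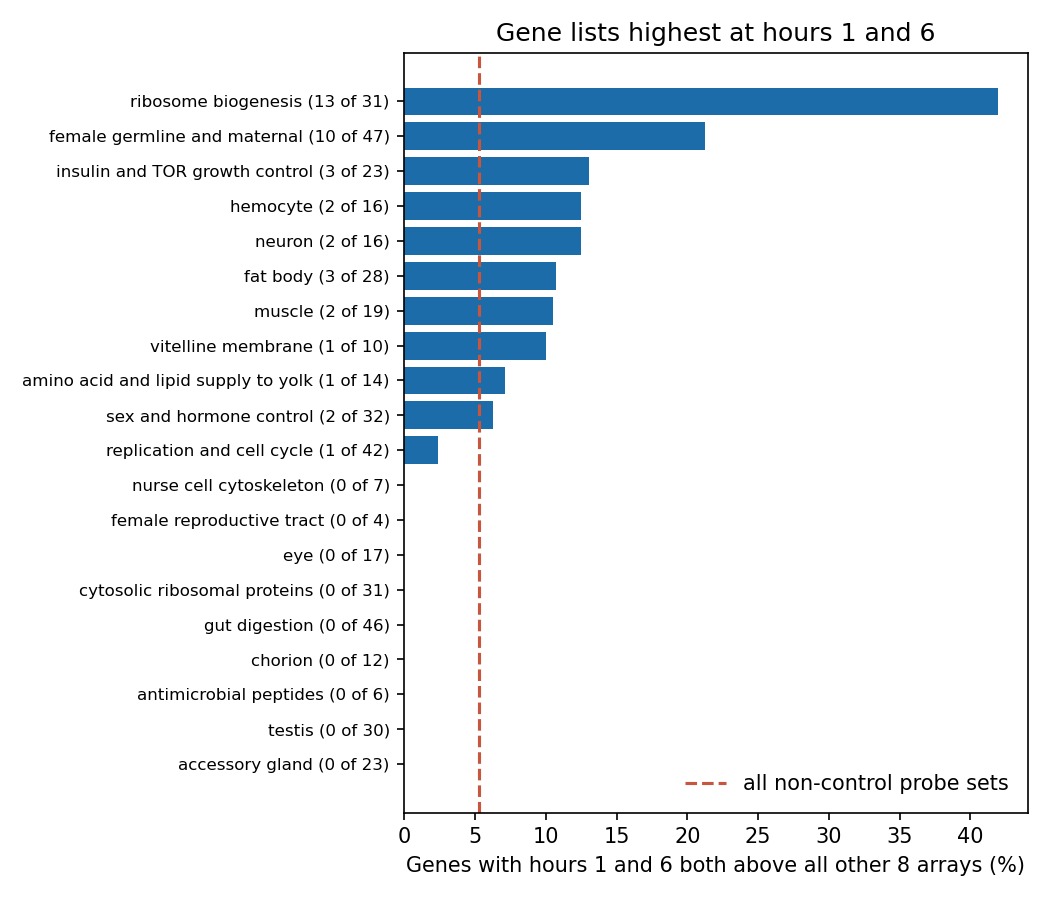
Percentage of the measured genes of each list whose intensity at hours 1 and 6 lay above all other 8 arrays, with the count in brackets, and the 5.28% of all non-control probe sets as a dashed line. Ribosome biogenesis stands at 41.9% and the female germline list at 21.3%, while the next lists stand at 13.0% and below. The yolk protein genes are left out.

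Insulin and TOR signalling, the growth pathway that reads nutrition, showed small differences. Of 23 measured genes, 3 lay above at both hours, or 13.0%, beside 5.28% of all probe sets. Among the 19 brighter members it was 3, or 15.8%, beside 6.83% of all bright probe sets. None of the 23 lay below, and their median was 0.12. Pdk1, the kinase that activates Akt, read 401 and 388 at hours 1 and 6, against 243 to 383 at the other hours. eIF4E1, the cap-binding factor under TOR control, read 763 and 869.8, against 519.5 to 747, and rictor, of TOR complex 2, read 140.2 and 146, against 106 to 139. The margins over the highest other hour were small for all 3. The receptor gene InR read 0.06 higher on the log2 scale and foxo 0.01, both within the range of the other hours.

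Fat body genes gave 3 of 28 above at both hours, or 10.7%, beside 5.28% of all probe sets, and a median of 0.09. Below at both hours lay 1, or 3.57%, beside 2.38% of all probe sets. Among the 22 brighter members 3 lay above, or 13.6%, beside 6.83% of all bright probe sets. The 3 were Treh, the enzyme that splits the blood sugar trehalose, Gpdh1, of glycerol phosphate metabolism, and Glys, glycogen synthase. Treh read 433 and 452 at hours 1 and 6, against 305 to 381 with a median of 366 at the other hours. Gpdh1 read 369 and 383, against 248 to 359, and Glys read 224 and 236, against 178 to 219. All 3 are also used outside the fat body. fon, a blood clotting protein of the fat body, read 280.4 at hour 1 and 398 at hour 6, against 201 to 316, so only hour 6 stood above. Lsp2, a storage protein of the fat body, read within the range of the other hours, with a difference of -0.12, and fit, a fat body protein tied to feeding, was at or near the floor throughout.

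Sex determination and hormone genes showed a median difference of 0, with 2 of 32 above at both hours and 1 below. The share above was 6.25%, beside 5.28% of all probe sets, and the share below was 3.125%, beside 2.38%. Cyp18a1, which inactivates ecdysteroids, read 103 and 108 at hours 1 and 6, against 68.9 to 97.6 at the other hours. gce, a juvenile hormone receptor, was the gene below, with 80.4 and 82.2 against 84.8 to 112. EcR, the ecdysone receptor, differed by -0.05. dsx, the sex-specific regulator of the yolk protein genes, read 94.3 and 96.6 at hours 1 and 6, against a median of 96.6 at the other hours, where hour 3 alone stood apart at 277.

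Markers of other tissues were counted in the same way, and their part in the results above was not tested. Muscle genes lay above at both hours in 2 of 19, neuronal genes in 2 of 16 and hemocyte genes in 2 of 16, with medians of 0.10, 0.05 and 0.12. These shares, 10.5%, 12.5% and 12.5%, stood beside 5.28% of all probe sets. They were close to the fat body share of 10.7% and the insulin and TOR share of 13.0%. Among brighter members the muscle, neuronal and hemocyte shares were 11.1%, 16.7% and 0%, beside 6.83% of all bright probe sets. Gpdh1 counts in both the muscle and the fat body list. Below at both hours lay 1 eye gene, or 5.88%, and 2 gut digestion genes, or 4.35%, beside 2.38% of all probe sets. Eye genes gave 0 of 17, gut digestion genes 0 of 46, genes of the female reproductive tract 0 of 4 and antimicrobial peptides 0 of 6. Accessory gland genes gave 0 of 23 and testis genes 0 of 30, with medians of -0.08 and -0.07. The summed intensity of the accessory gland genes was 1259 and 1246 at hours 1 and 6, against 1244 to 2898 at the other hours, and that of the testis genes 3626 and 3488, against 3482 to 6738. Both ranges reach their top at hour 7 alone. Taking hour 6 by itself, 7 of 16 hemocyte genes and 7 of 19 muscle genes lay above all other 8 arrays, beside 15.9% of all probe sets. The other lists of this paragraph lay under that share. At hour 1 it was 6 of 17 eye, 5 of 16 neuronal, 3 of 16 hemocyte, 2 of 19 muscle and 2 of 4 female reproductive tract genes, beside 9.82%. The gut digestion, accessory gland, testis and antimicrobial peptide lists lay under it.

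Averaged over each list as the log2 deviation from the gene's mean over all 10 arrays, several lists were also high at hour 3. These deviations are not centred on each array. The hour 3 array had a median of 120.1 intensity units, against 111.2 to 115.7 on the other arrays. The part of that higher median in the list values at hour 3 was not tested. The germline list stood at 0.08 at hour 1 and 0.17 at hour 6, against 0.12 at hour 3 and -0.10 to -0.00252 at the remaining hours. The ribosome biogenesis list stood at 0.09 and 0.12, against 0.16 at hour 3, the highest of all 10 arrays, and -0.12 to -0.00538 elsewhere. That value leans on ppan: without this gene the list stood at 0.10 and 0.13 at hours 1 and 6, against 0.07 at hour 3. The germline list without shu, its gene farthest up at hour 3, stood at 0.09 and 0.18, against 0.08 at hour 3. The vitelline membrane list stood at 0.23 and 0.03, against 0.28 at hour 3 and -0.11 to -0.03 elsewhere. Without Vm26Aa it stood at 0.12 and 0.03, against 0.22 at hour 3, which stayed the highest array. The replication and cell cycle list stood at 0.00305 and 0.07, against 0.13 at hour 3. Without Caf1-180 it stood at 0.01 and 0.07, against 0.11 at hour 3, again the highest array. In each list the gene left out was the one farthest up at hour 3, chosen after its values were seen. Hour 3 was also the highest of the other hours in the yolk protein list, with 0.54 beside 1.69 and 0.96 at hours 1 and 6. Other lists were not high at hour 3. The insulin and TOR list stood at 0.08 and 0.09 at hours 1 and 6, against -0.11 to 0.07 at the other hours, with hour 12 about level with hour 1 and hour 3 at -0.05. The fat body list stood at 0.05 and 0.12, against -0.16 to 0.09, with -0.03 at hour 3, and the nurse cell cytoskeleton list at 0.11 and 0.17, against -0.17 to 0.04.

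**Figure D5:**
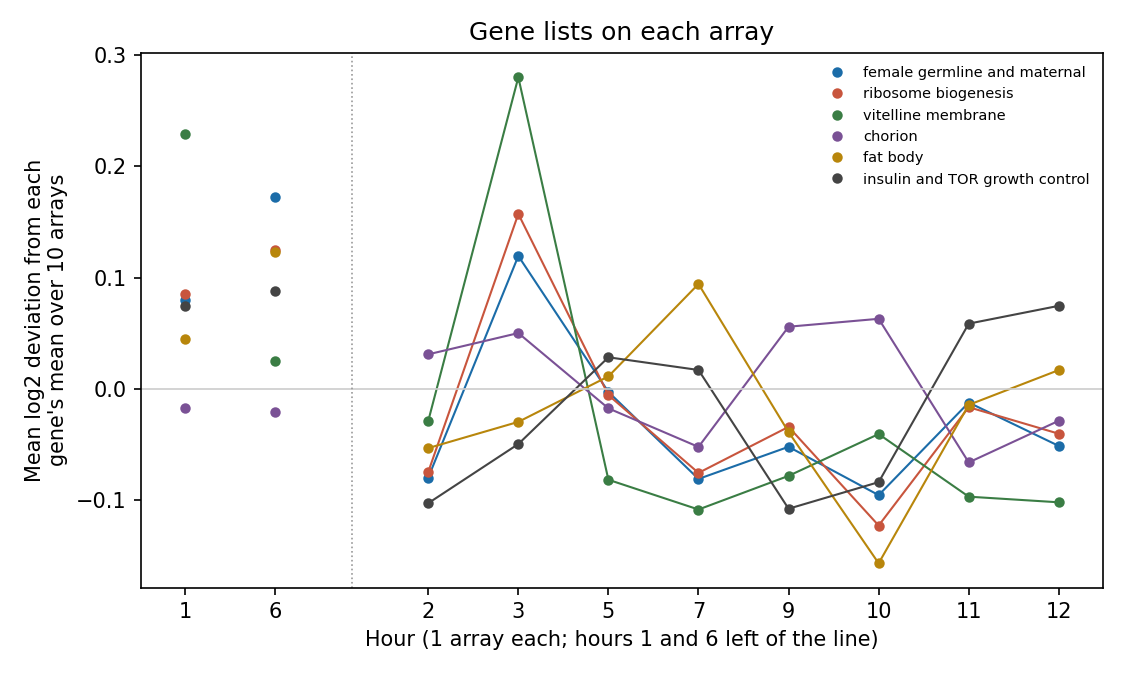
Mean log2 deviation of 6 gene lists from each gene's mean over 10 arrays, with hours 1 and 6 left of the dotted line. The ribosome biogenesis list stands at 0.09 and 0.12 at hours 1 and 6 and at 0.16 at hour 3, where ppan is far up, and the chorion list stays between -0.07 and 0.06 on all arrays.

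The relation of other transcripts to the yolk level was tested within the other 8 arrays alone. The yolk intensities of these arrays took part in the choice of hours, since all 10 were ranked by them, so the fit is no test of that choice. limma fitted each probe set's log2 intensity to the mean log2 intensity of Yp1, Yp2 and Yp3, over 8377 brighter probe sets. By limma with Benjamini-Hochberg adjustment at 0.05, 0 slopes passed in the positive direction (0%) and 0 in the negative (0%). At an unadjusted p under 0.05 there were 1065 positive slopes, or 12.7%, and 215 negative slopes, or 2.57%. The split depended on the scaling, with 379 positive and 481 negative after quantile normalization and 715 and 393 after median centring. Without hour 3 the counts were 135 and 58.

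Of the 17 probe sets that were higher at hours 1 and 6, 12 were bright enough for that fit, and 9 of them had a positive slope, beside 61.9% of all tested. me31B had the smallest p of these, with a slope of 0.44 ± 0.12 (SE, 8 arrays) log2 units per log2 unit of yolk level and an adjusted p of 0.285 by limma. Of the list members tested, positive slopes at the unadjusted limit numbered 3 of 27 for the germline list, 4 of 23 for ribosome biogenesis and 2 of 22 for the fat body, beside 12.7% of all tested. They numbered 3 of 5 for the vitelline membrane, 5 of 25 for replication and the cell cycle, 4 of 9 for hemocytes and 7 of 36 for gut digestion. None passed the adjustment. Vm26Aa and Vm34Ca had slopes of 0.58 ± 0.19 and 0.25 ± 0.08 (SE), both with an adjusted p of 0.285 by limma, and both were highest at hour 3 among the 8 arrays.

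The smallest p in the fit belonged to Send1, a protease of the sperm storage organ, with an adjusted p of 0.221 by limma. It read 227 at hour 1 but 115 at hour 6, against 214 and 213 at hours 2 and 3 and 105 to 126 at the remaining hours. It was thus high over hours 1 to 3 and not at hour 6. Acp1, a cuticle protein, CG15254, Jhbp13 and Mob2 had the next smallest p-values among positive slopes, and Cirl, Ubi-p63E, nocte, CG13868 and CG13775 the smallest among negative slopes, with adjusted p-values of 0.285 by limma. Ubi-p63E, a polyubiquitin gene, read 2954 and 2267 at hours 1 and 6, against 2354 to 3589 at the other hours.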

How the data were processed

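RNA of whole flies was hybridised to Affymetrix Drosophila arrays, and the authors normalized the deposited intensity values with dChip, per the labels. The dChip version, and whether mismatch probes were used, are not stated in the labels. Scaling arrays to each other would remove a shift common to most transcripts. Array number limits the precision. The table held 14010 probe sets on 10 arrays with 0 unused columns. 44 were controls, and of the other 13966 the platform annotation gave 1 gene for 12443, several for 327 and none for 1196. 12394 symbols were updated through the RefSeq gene table of Release 6 and 49 were kept.

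Intensities below the 20th percentile, 57.4, were set to it before log2, which understates differences of dim transcripts. A gene's brightest probe set stood for it in lists. Differences are the mean log2 at hours 1 and 6 minus the mean over the other 8, without a test. The slope fit used limma 3.58.1 in R 4.3.3 (lmFit, eBayes with trend, two-sided), on probe sets at or above the 40th percentile of mean log2, and was tested on simulated data. Python 3.11.15, pandas 2.3.3 and matplotlib 3.10.9 did the rest.

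The members, the 21 lists and the tests were chosen with earlier results of these data known. Named genes are the yolk protein genes, the 12 largest differences each way among those counted, up to 6 per list by size, and the 5 smallest slope p-values each way. Other names were chosen after their values were seen, such as betaTub56D, Tao, CBP, CG33229, CG15096 and the list members past the sixth. Alternatives were quantile normalization, median centring, other floors, filters and size limits, the mean over a gene's probe sets, other slope models and leaving out arrays.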

Additional observations from a re-analysis of the deposited data

Results flagged for a closer look

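Among the other 8 hours, 138 list means and gene intensities were screened for a single array whose gap to the nearest other array exceeded Dixon's 95% limit. For independent values picked without regard to size, chance flags about 1 in 20 such groups. Here many genes were named for the size of their difference, and some are members of the screened lists. That rate is thus no yardstick here. 24 were found. Hour 3 held 11 of them and hour 7 held 10, while hour 9 had 1 and hour 10 had 2. Values are given without an explanation, and list means are log2 deviations from each gene's mean over 10 arrays. They are not centred on each array, and hour 3 had the highest array median.

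At hour 3 the list means were 0.2801 for the vitelline membrane, 0.1196 for germline and maternal genes, 0.1348 for replication and the cell cycle and 0.1574 for ribosome biogenesis. Without each list's gene farthest up at hour 3 (Vm26Aa, shu, Caf1-180 and ppan) these means were 0.22, 0.08, 0.11 and 0.07. The eggshell genes Vm26Aa and Vm34Ca read 782 and 499.6 there, and the germline and ring canal genes exu and hts read 215.1 and 134.8. Caf1-180, a chromatin assembly factor of replication, read 293.8 at hour 3, against 129 to 157 at the other 7 hours. PPO3, a prophenoloxidase of blood cells, read 304.4 and Jhbp13 read 484.6.

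At hour 7 the list means were 0.4959 for the accessory gland and 0.532 for the testis, against values of at most 0.01 at the other 7 hours. The accessory gland genes Mst57Da, SP, which encodes the Sex Peptide, and Acp36DE read 636.7, 162.7 and 188.7 there. The testis genes Mst84Dd, Mst84Da, Mst87F, S-Lap7 and Mst98Cb read 753.8, 585.1, 574.9, 266.9 and 152.7. Low values stood out for the muscle gene Mlp84B, 991 at hour 9, and for Arpc1 and eIF4E1, 177.9 and 519.5 at hour 10.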

How the results depend on the processing

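The count of higher probe sets, 20, was 3 with a limit of 1 log2. Leaving out an array gave 13 (without hour 10) to 124 (hour 6 alone), and hour 1 alone gave 47. The count of lower probe sets, 1, was 3 with a floor at the 5th percentile, 0 with a limit of 1 log2 and 0 without hours 3, 7 and 9, an alternative chosen after seeing the data. Leaving out an array gave 0 (without hour 10) to 14 (hour 1 alone). The germline median of 0.10 was 0.1662 with that lower floor and 0.26 over bright probe sets, and the sex and hormone median of 0 was -0.05212 over bright probe sets. The nurse cell cytoskeleton median lay between 0.08246 (hour 1 alone) and 0.2272 when an array was left out. The positive slopes that passed, 0, numbered 0 to 1 when an array was left out, with 1 without hour 2 or hour 11. The unadjusted positive slopes, 1065, were 135 without hour 3, 139 without hours 3, 7 and 9, and 215 with hour as a covariate. Scaling moved the split of unadjusted slopes from 1065 positive and 215 negative to 379 and 481 after quantile normalization and 715 and 393 after median centring. Genes above all other arrays at both hours numbered 10, 11 and 11 in the germline list and 13, 10 and 13 in the ribosome biogenesis list with the authors' scaling, quantile normalization and median centring. Over all probe sets the shares were 5.28%, 4.04% and 4.78%, in that order. Without hour 3 the genes numbered 14 in each list, beside 1002 of all probe sets, or 7.17%. Of the named genes' recomputed differences, 1914 stayed within 1 SD of the other 8 arrays, 75 moved farther and 0 changed sign among called ones. No paired analysis was possible because the labels give no replicate numbers and each hour is 1 array.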

Other observations

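Antimicrobial peptide genes, targets of the innate immune pathways, stood apart from the yolk pattern. Their mean log2 deviation was -0.31 at hour 1 and 0.25 at hour 6, against 0.62 at hour 2, 0.76 at hour 9 and -0.36 to -0.04 at the remaining hours. Of the 6 measured genes, 0 lay above all other arrays at both hours, beside 5.28% of all probe sets. With 6 genes, that count is near the share of all probe sets and says little. The 4 measured genes of the female reproductive tract had a mean deviation of 0.28 at hour 1 and -0.09 at hour 6, against 0.20 at hour 2, 0.11 at hour 3 and -0.13 to -0.05 at the remaining hours. Only 1 of the 4, Send1, was among the brighter probe sets, and lz sat at the floor on all arrays. Send2 read 72.1 and 74.3 at hours 1 and 2 and lay under the floor of 57.4 at all other hours.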
